A study of Mus musculus with 16 samples.

Results

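The 10 genes described here make up the core of the mammalian circadian clock and its nearest outputs: the activators Arntl (BMAL1) and Clock, the Period genes Per1 and Per2, the cryptochromes Cry1 and Cry2, the REV-ERB receptors Nr1d1 and Nr1d2, the output factor Dbp and the E-box competitor Bhlhe40 (DEC1). They were chosen on measured values, since their exon levels and reads outside exons in these same libraries were known when the list was drawn up, so those values are a description and no test was made. All 10 were found among 38918 features in the deposited tables, and all 10 had at least 5 exon reads per 1000000 (CPM) in some library.

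In the clock, BMAL1 and CLOCK bind E-box sequences as a pair and drive transcription of the Period, cryptochrome and REV-ERB genes. PER and CRY proteins accumulate and block that pair, which closes the main negative loop. REV-ERB proteins bind sites named RORE, which the ROR receptors also use, and repress Arntl in a second loop. Per1 is in addition an immediate early gene in many cells, because the cAMP-response factor CREB and other signal-driven factors act on its promoter.

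The cells were mouse pre-B cells from Blnk-/- KO animals that carried a retroviral BLNK-ERt2 construct, in which the adaptor BLNK is joined to a tamoxifen-responsive receptor domain. BLNK relays the signal of the pre-B cell receptor (pre-BCR), and the study set out to find the genes that this signal regulates. The control and the groups stimulated during 0.5, 1.5 or 5 h all had this deletion and this construct, which the sample titles call tamoxifen inducible. Whether the control received vehicle, how many animals or clones the cells came from, and the clock phase or the hour of harvest are not stated in the labels. The 16 samples are 4 sequencing lanes of each of 4 libraries, 1 library per condition, so the lanes show sequencing error only and nothing measures the spread between cultures.

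Library totals were 34533362 (control), 33864004 (0.5 h), 32631061 (1.5 h) and 30746189 (5 h) exon reads, with 7631791 to 8709054 per lane. Between lanes the members' counts had a chi-square per degree of freedom of 0.017 to 2.94, with a median of 0.712 over 40 gene and condition groups, where counting error alone gives about 1. Blnk had 3516 to 3806 CPM in the 4 libraries, which does not tell the construct from the deleted gene, and Esr1 had 94.7 CPM in control and 106 to 109 CPM after stimulation. Of 13 pre-B markers, 12 were found and all 12 had at least 1 CPM, with a summed level of 14020 to 16358 CPM. For T and NK cells 1 of 10 markers reached 1 CPM (summed 14.2 to 21.1 CPM, 2 at 0), for myeloid cells 3 of 10 (40.5 to 73.8 CPM, none at 0), for erythroid cells and megakaryocytes 2 of 7 (3.55 to 4.29 CPM, none at 0), and for stromal cells 1 of 8, Vim (412 to 498 CPM, 3 at 0). In bulk RNA, fewer cells of a type and less RNA per cell cannot be told apart.

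A ratio compares CPM + 1 on the log2 scale, and a gene is called when it differs at least 2-fold and its larger level reaches 5 CPM. Fold changes in the text are ratios of CPM, and each interval in brackets is an exact 95% interval for counting error only. With no replicate library, a call says that 2 libraries differ, not that the conditions do.

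The promoter windows of the 3 members that were called, and of Nr1d2, are shown because the loops above are known to act through a few short motifs. They run from 250 bases before to 50 bases after a RefSeq transcript start (build GRCm38.p6), 5' to 3' on the gene's strand, and 8 of the 10 members have at least 1 such window. Capitals mark every match, on either strand, to the E-box (CACGTG), the E'-box (CACGTT), the D-box (TTATGNAA, the site of DBP, TEF and HLF), the REV-ERB core site (AGGTCA) and the RORE, which contains that core site. A match is a string of letters and not a bound site.
Per1, chr11:69098699-69098998, plus strand: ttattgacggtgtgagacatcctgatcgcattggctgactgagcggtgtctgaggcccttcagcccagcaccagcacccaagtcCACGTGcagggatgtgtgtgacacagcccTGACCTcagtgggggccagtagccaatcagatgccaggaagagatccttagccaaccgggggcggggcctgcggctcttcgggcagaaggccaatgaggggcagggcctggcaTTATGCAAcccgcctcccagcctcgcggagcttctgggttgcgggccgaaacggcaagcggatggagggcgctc
Nr1d1, chr11:98775328-98775627, minus strand: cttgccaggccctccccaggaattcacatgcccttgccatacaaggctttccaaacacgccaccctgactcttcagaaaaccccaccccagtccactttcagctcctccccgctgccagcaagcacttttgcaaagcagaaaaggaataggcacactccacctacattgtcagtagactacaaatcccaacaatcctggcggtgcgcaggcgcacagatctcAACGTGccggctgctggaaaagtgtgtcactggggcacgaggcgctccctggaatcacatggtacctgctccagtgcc
Arntl, chr7:113207261-113207560, plus strand: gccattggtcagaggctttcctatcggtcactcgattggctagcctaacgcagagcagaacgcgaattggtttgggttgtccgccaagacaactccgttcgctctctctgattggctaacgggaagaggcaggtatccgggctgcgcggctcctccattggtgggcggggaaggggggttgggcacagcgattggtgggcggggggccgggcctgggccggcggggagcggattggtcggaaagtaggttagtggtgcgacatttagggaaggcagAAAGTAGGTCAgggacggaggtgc
Nr1d2, chr14:18239057-18239356, minus strand: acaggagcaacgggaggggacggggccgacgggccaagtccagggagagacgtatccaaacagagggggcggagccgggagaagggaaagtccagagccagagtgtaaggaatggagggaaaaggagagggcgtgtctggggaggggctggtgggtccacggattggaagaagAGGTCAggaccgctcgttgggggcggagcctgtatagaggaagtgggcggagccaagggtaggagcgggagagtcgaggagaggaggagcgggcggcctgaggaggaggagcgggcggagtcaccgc

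The Per1 window holds an E-box 166 bases before the transcript start, a core site in reverse at 137 bases and a D-box at 24 bases. A second Per1 window, chr11:69099902-69100201, holds none of these. The Nr1d1 window has a single E'-box, 28 bases before the start and on the opposite strand. The Arntl window shown has the only RORE among the members' windows, from base 27 after the start. A second Arntl window, chr7:113207215-113207514, has no match to any marked motif. Nr1d2 has a core site 77 bases before its start. Outside these 4, Cry1 has an E-box and an E'-box, Cry2 an E'-box, and 1 of the Clock windows a core site, while the Dbp window has none. Over all 32851 windows of the same length, 7.15% hold the E-box, 4.68% the E'-box, 3.38% the D-box, 16.3% the core site and 0.384% the RORE. The full cAMP-response element (TGACGTCA, 1.79% of all windows) was in no window of a member. These shares are given so that the common motifs, above all the core site, are not read as particular to the clock genes.

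**Figure D1:**
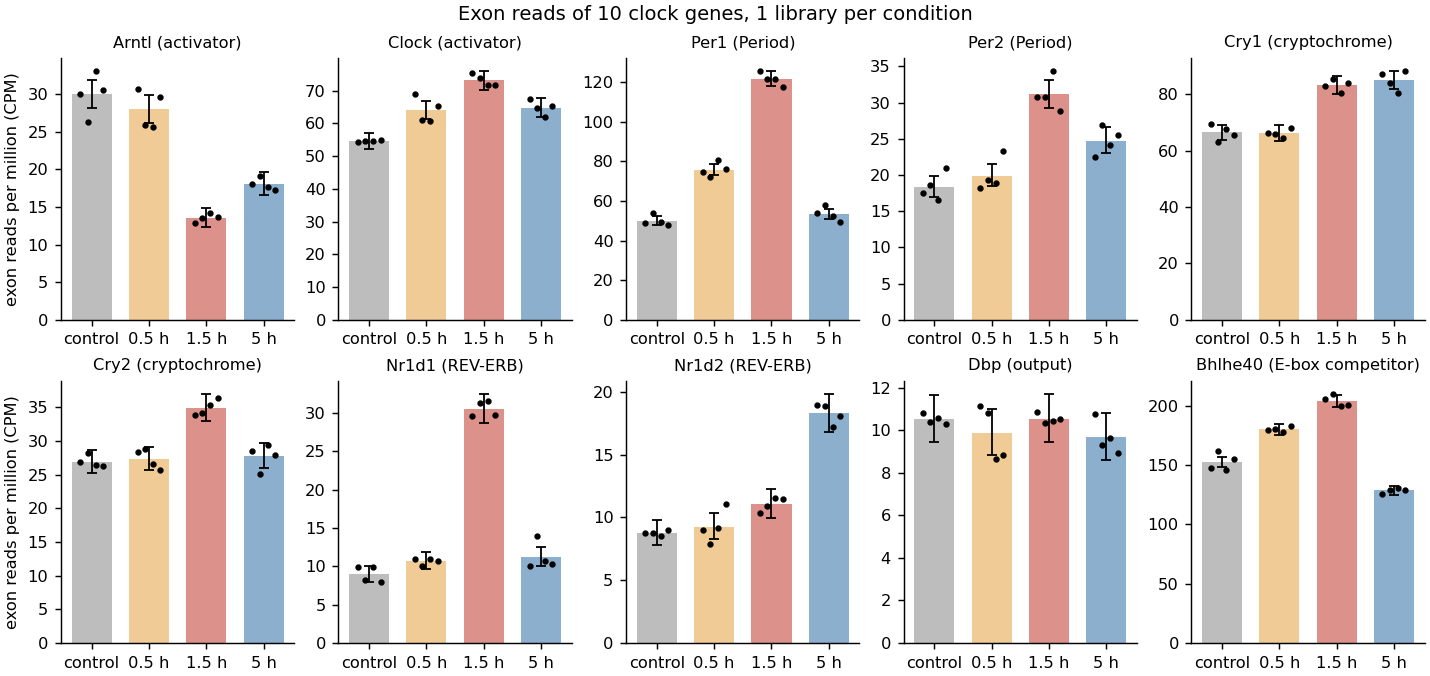
Exon reads per 1000000 (vertical axis, CPM) of each of the 10 clock genes in control cells and after 0.5, 1.5 and 5 h of stimulation. Bars are the library values, lines the 95% counting interval, and points the 4 lanes of each library, which are repeats of 1 library. Nr1d1 and Per1 peak at 1.5 h, Arntl is lowest there and Nr1d2 is highest at 5 h.

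The Period gene Per1 (chr11:69095217-69109960, mm10, plus strand) encodes the repressor that is most often induced acutely by signals. Its exon level was 49.95 CPM in control, 75.8 at 0.5 h, 121.6 at 1.5 h and 53.4 at 5 h. All 4 lanes of the 1.5 h library (117.6 to 125.7 CPM) lay above every control lane (47.7 to 53.8 CPM). Per1 rose 2.43-fold by 1.5 h (2.30 to 2.58) and fell back, being 2.28-fold lower at 5 h than at 1.5 h (2.15 to 2.41). At 0.5 h it was 1.52-fold above control (1.43 to 1.61), under the call, and at 5 h 1.07-fold above (0.999 to 1.15).

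Per2 (chr1:91415984-91459330, minus strand), the paralogue whose protein has the larger part in the loop in many tissues, had 18.4, 19.9, 31.2 and 24.8 CPM in the same order. Its exon reads were not called in any comparison. Its 1.5 h level was 1.69-fold that of control (1.53 to 1.87), and the 5 h level 1.34-fold (1.21 to 1.50). Its lanes at 1.5 h (28.9 to 34.4 CPM) did not overlap those of control (16.6 to 20.9 CPM). Per exon length, Per1 exceeded Per2 by 2.81-fold in control (2.57 to 3.08), 3.94-fold at 0.5 h and 4.04-fold at 1.5 h (3.77 to 4.33). By 5 h the excess was 2.24-fold (2.05 to 2.44).

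The cryptochromes Cry1 (chr10:85131702-85185054, minus strand) and Cry2 (chr2:92403646-92434043, minus strand) form the repressor complex with the PER proteins. Cry1 had 66.5, 66.2, 83.2 and 85.1 CPM from control to 5 h, a ratio to control of 1.25 at 1.5 h (1.18 to 1.33) and 1.28 after 5 h (1.21 to 1.35). Cry2 had 27.0, 27.4, 35.0 and 27.8 CPM, with a ratio of 1.30 at 1.5 h (1.19 to 1.42) and 1.03 at 5 h (0.939 to 1.13). Neither was called. The values at 1.5 h were alike in size, whereas at 5 h Cry1 stayed at its 1.5 h level and Cry2 was at that of control. Between 69.6% and 72.3% of Cry2 exon reads were counted as unique, against 100% for Cry1. The long transcript D930015M05Rik runs through Cry2 on the other strand and had at most 0.0919 CPM.

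The REV-ERB receptors are haem-binding nuclear receptors that repress Arntl. Nr1d1 (REV-ERB alpha, chr11:98767932-98775333, minus strand) had 8.98 CPM in control, 10.7 at 0.5 h, 30.6 at 1.5 h and 11.3 at 5 h. The lanes of the 1.5 h library spanned 29.6 to 31.6 CPM, and the highest lane of any other library had 14.0 CPM. Nr1d1 rose 3.41-fold over control at 1.5 h (2.996 to 3.88), 2.87-fold over 0.5 h (2.54 to 3.25), and fell 2.72-fold from 1.5 to 5 h (2.40 to 3.08). Its ratio at 1.5 h was the largest of the 10 members, and its size exceeded that of 99.9% of the features tested.

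Because Nr1d1 and the thyroid receptor gene Thra overlap by 1075 bases at their 3' ends on opposite strands, and strand use in the counting is not stated, reads of the pair could be shared. Thra had 54.0, 61.0, 38.8 and 32.6 CPM, a log2 ratio to control of -0.47 at 1.5 h and -0.71 at 5 h. Its level was thus lower than control at 1.5 h, where Nr1d1 was highest. It was lowest at 5 h, when Nr1d1 had fallen to 11.3 CPM, so the courses were not simply opposite. Reads across Nr1d1 exon-exon junctions numbered 31, 33, 109 and 36, a 3.72-fold difference at 1.5 h (2.48 to 5.74). Between 90.0% and 93.9% of Nr1d1 exon reads were unique in every library.

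Nr1d2 (REV-ERB beta, chr14:18204054-18239127, minus strand) followed another course: 8.75, 9.27, 11.1 and 18.3 CPM. At 5 h it was 2.09-fold above control (1.81 to 2.41). On the scale used for calling, its log2 ratio there was 0.98, just short of 1, so it was not called. The 5 h lanes (17.2 to 19.0 CPM) lay above all others, whose highest was 11.6 CPM. Per exon length, the ratio of Nr1d1 to Nr1d2 was 1.67 in control (1.42 to 1.96), 1.87 at 0.5 h, 4.48 at 1.5 h (3.97 to 5.07) and 1.001 at 5 h (0.873 to 1.15).

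Of the activators, Arntl (chr7:113207465-113314122, plus strand) was the only member called lower than control. It had 30.0 CPM in control, 28.0 at 0.5 h, 13.5 at 1.5 h and 18.0 at 5 h. Lanes of the 1.5 h library (12.8 to 14.1 CPM) did not overlap those of any other library. Arntl was 2.21-fold lower than control at 1.5 h (1.98 to 2.48), which was called. At 5 h it was 1.66-fold lower (1.50 to 1.85), which was not. Between 0.5 and 1.5 h it was 2.06-fold lower (1.84 to 2.32), with a log2 ratio of -0.99, just short of a call.

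Clock (chr5:76212177-76304548, minus strand), the partner of BMAL1, had 54.6, 64.1, 73.2 and 64.9 CPM and was not called. It was 1.34-fold above control at 1.5 h (1.26 to 1.42), the direction opposite to that of Arntl. The ratio of Clock to Arntl per exon length was 0.707 in control (0.655 to 0.764), 0.890 at 0.5 h, 2.097 at 1.5 h (1.89 to 2.33) and 1.40 at 5 h (1.27 to 1.54). The ratio of Nr1d1 to its textbook target Arntl was 0.283 in control (0.248 to 0.321), 0.360 at 0.5 h, 2.13 at 1.5 h (1.90 to 2.39) and 0.589 at 5 h (0.514 to 0.675). Thus control cells had fewer Nr1d1 than Arntl reads per length, and the library at 1.5 h had more.

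Dbp (chr7:45705088-45710155, plus strand), a PAR bZIP factor and a direct E-box target that in most tissues follows BMAL1 activity closely, was the flattest member by exon CPM. It had 10.51, 9.86, 10.54 and 9.66 CPM, a ratio to control of 1.003 at 1.5 h (0.863 to 1.17) and 0.919 at 5 h (0.786 to 1.07). Dbp shares 689 bases with Sphk2 on the other strand, which had 54.4 to 64.0 CPM. Bhlhe40 (chr6:108660629-108666925, plus strand), which competes for E-boxes and is known as a signal-induced gene in lymphocytes, was the most abundant member per length. It had 152, 180, 204 and 129 CPM, 1.34-fold above control at 1.5 h (1.29 to 1.39) and 1.19-fold below at 5 h (1.14 to 1.24). Reads across its exon-exon junctions did not show that lower value, with a ratio to control of 0.990 at 5 h (0.857 to 1.14). From 1.5 to 5 h the exon level of Bhlhe40 was 1.59-fold lower (1.53 to 1.65), again under the call. Its span shares 306 bases with 0610040F04Rik, which had at most 0.319 CPM.

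Counted over the members, none of 10 was called at 0.5 h, beside 0.305% of 9516 features tested. At 1.5 h, 2 were higher (Per1 and Nr1d1) and 1 lower (Arntl), beside 0.852% of 9512. At 5 h none was called, beside 0.735% of 9520. From 0.5 to 1.5 h, 1 was higher (Nr1d1), beside 0.411% of 9499. From 1.5 to 5 h, 2 were lower (Per1 and Nr1d1), beside 0.54% of 9453. Since the list was drawn up with these values known, nothing is read from the counts beyond which genes they name.

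The counting interval of the exon ratio excluded 1 for 4 of 10 members at 0.5 h (42.3% of all features tested), for 9 at 1.5 h (64.9%) and for 7 at 5 h (67.5%). It did so for 9 of 10 from 0.5 to 1.5 h (61% of features) and for 8 from 1.5 to 5 h (60.8%). At this depth even a ratio such as the 1.17 of Clock at 0.5 h (1.10 to 1.25) exceeded counting error, so an interval that excludes 1 is not read as a change. The members' median log2 ratio to control was 0.09 at 0.5 h, 0.39 at 1.5 h and 0.17 at 5 h, where the median of all measured features was within 0.02 of 0. At 1.5 h, 9 members were above 0 and Arntl alone below.

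**Figure D2:**
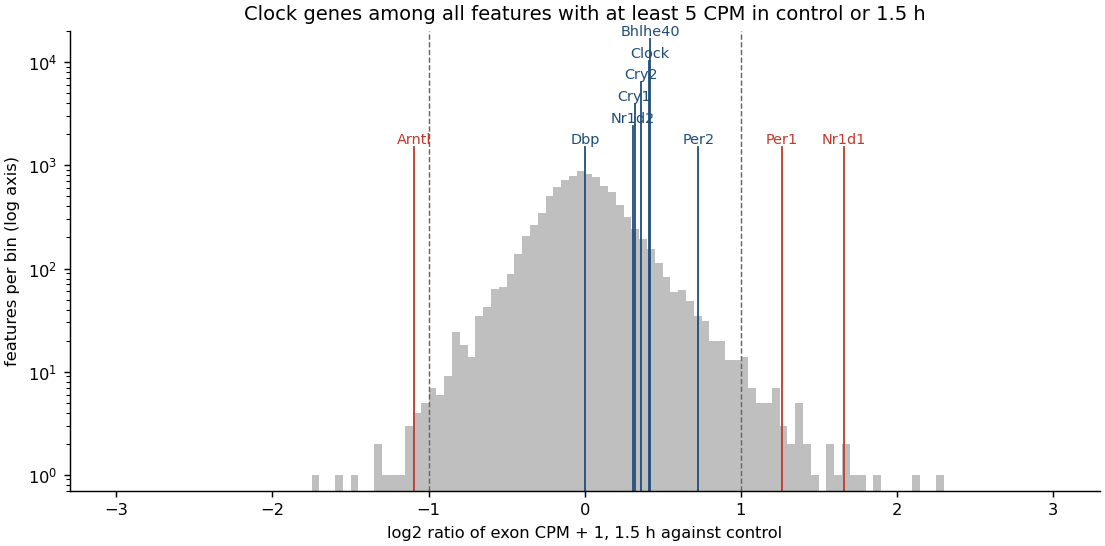
Features per bin (vertical log axis) by log2 ratio of exon CPM + 1 at 1.5 h against control (horizontal axis), for features with at least 5 CPM in either library. Red lines mark the called members (Arntl, Per1, Nr1d1), blue lines the other 7, and dashed lines 2-fold. Dbp sits at the centre, and Clock, Cry1, Cry2, Nr1d2 and Bhlhe40 between 0.31 and 0.42.

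Reads outside exons come mostly from introns of unspliced RNA, and are given as RPM, here reads per 1000000 total exon reads. They were called at 2-fold or more, with 0.2 RPM added to both libraries and a larger level of 1 RPM or more. Of the members, 8 passed that floor. Nr1d1 and Dbp did not, with 9 to 28 and 19 to 27 such reads per library. All features together also had more of them late: they came to 12.6% of exon reads in control and at 0.5 h, 13.5% at 1.5 h and 14.4% at 5 h, and the median feature tested had a log2 ratio to control of 0.01, 0.08 and 0.18.

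Outside exons, Per1 had 31 reads in control, 118 at 0.5 h, 80 at 1.5 h and 32 at 5 h, or 0.898, 3.48, 2.45 and 1.04 RPM. The 0.5 h lanes held 19 to 37 of these reads, the control lanes 5 to 9. Per1 thus rose 3.88-fold outside exons by 0.5 h (2.59 to 5.97), while its exon ratio was 1.52 (1.43 to 1.61), so the intervals did not overlap. Reads across Per1 intron-exon borders numbered 9, 38, 41 and 9. The outside reads of Per1 had their highest value at 0.5 h and the exon reads theirs at 1.5 h.

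Arntl had 11.5, 6.47, 5.55 and 7.12 RPM outside exons (398, 219, 181 and 219 reads). Every control lane (97 to 104 reads) lay above every lane at 0.5 h (48 to 59 reads). At 0.5 h these reads were 1.78-fold lower (1.51 to 2.11), under the call, while the exon ratio was 0.933 (0.853 to 1.02). The lower value outside exons was therefore already present at 0.5 h, when exon reads had not yet departed from control by more than counting error. At 1.5 h the outside reads were 2.08-fold lower (1.74 to 2.49), close to the 2.21-fold of the exons. This was called with a log2 ratio of -1.03, but not called without lane 3.

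Nr1d2 showed the same order in the other direction. Its outside reads were 58, 83, 150 and 101, or 1.68, 2.45, 4.60 and 3.28 RPM, and rose 2.74-fold at 1.5 h (2.01 to 3.77). The exon ratio at that time was 1.27 (1.09 to 1.48), and reached 2.09 only at 5 h. All 4 lanes at 1.5 h (35 to 41 reads) exceeded the control lanes (11 to 17 reads). The intron-exon borders of Nr1d2 had 1 read in every library, too few to show this course.

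Per2 had 2.26, 2.30, 5.55 and 1.79 RPM outside exons. They rose 2.46-fold over control at 1.5 h (1.87 to 3.25) and fell 3.10-fold from 1.5 to 5 h (2.28 to 4.27). At 5 h the outside reads of Per2 were 0.792 of control (0.5504 to 1.13) while its exon reads were still 1.34-fold above (1.21 to 1.50). The intron-exon borders of Per2 had 13, 2, 20 and 6 reads. At 0.5 h that was 0.157 of control (0.0172 to 0.693), against 1.02 for the outside reads (0.735 to 1.41).

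Cry1 had 9.32, 13.1, 15.7 and 12.0 RPM outside exons, 1.41-fold above control at 0.5 h (1.22 to 1.63) where the exon ratio was 0.996 (0.939 to 1.06), and 1.68-fold at 1.5 h (1.46 to 1.94). Clock had 7.82, 8.12, 11.7 and 10.1 RPM, and Cry2 4.75, 4.55, 5.73 and 4.55. Bhlhe40 had 4.23, 4.31, 3.40 and 3.06 RPM. Its ratio to control at 1.5 h, when its exon level was at its highest, was 0.805 (0.623 to 1.04), within counting error of 1. At 5 h the outside ratio of Bhlhe40 was 0.723 (0.552 to 0.944), below 1 by more than counting error. None of these 4 was called.

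For Nr1d1 the readouts parted: outside exons it had 26, 28, 28 and 9 reads, all under the floor, with a ratio of 1.14 at 1.5 h (0.644 to 2.02), against 3.41 in exons. Reads across its intron-exon borders numbered 11, 8, 26 and 7. Of the 10 genes only Dbp and Bhlhe40 have shorter spans, and so few reads leave a wide interval.

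Over the members tested outside exons, 1 of 8 was called at 0.5 h (Per1, higher), beside 0.811% of 9747 features. At 1.5 h, 3 were higher (Per1, Per2 and Nr1d2) and 1 lower (Arntl), beside 3.84% of 9739. At 5 h none was called, beside 1.03% of 9806. From 0.5 to 1.5 h, 1 was higher (Per2), beside 2.16% of 9749, and from 1.5 to 5 h, 2 were lower (Per1 and Per2), beside 2.01% of 9814. Without lane 3 the count at 1.5 h was 3, and without lane 1 or lane 4 the count from 1.5 to 5 h was 1, Per2. All comparisons with control share the same control library, so a chance excess or lack there would move each of them.

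**Figure D3:**
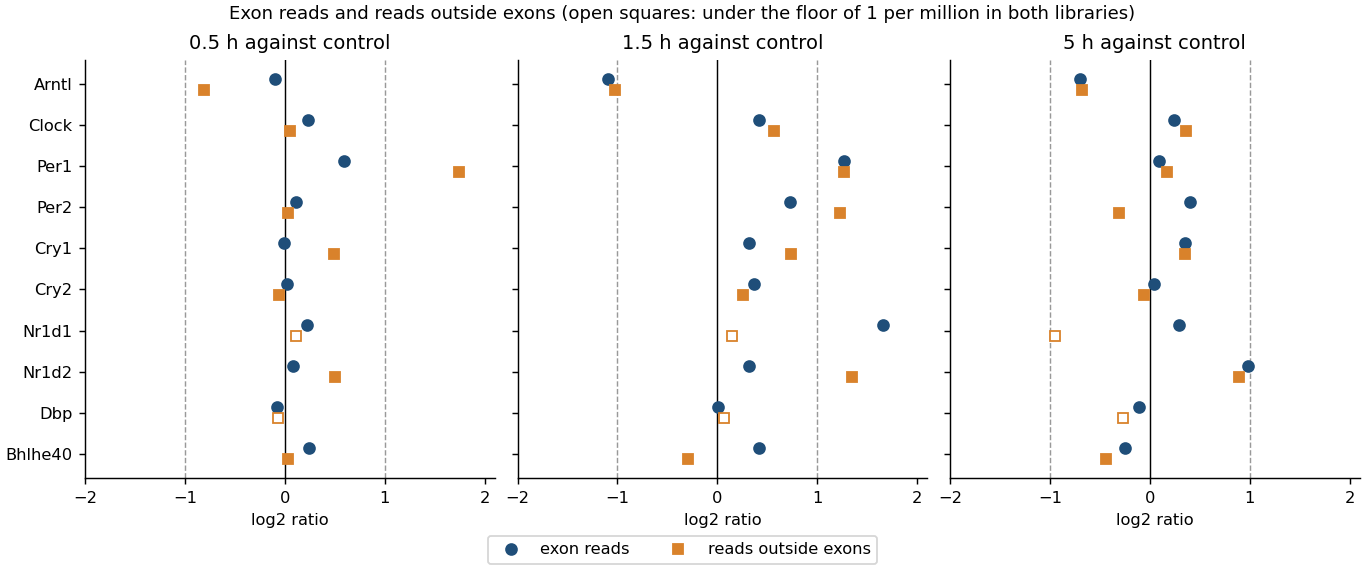
Log2 ratio to control (horizontal axis) of exon reads (circles) and of reads outside exons (squares) for the 10 members (vertical axis) at 0.5, 1.5 and 5 h; open squares are under the floor and dashed lines mark 2-fold. At 0.5 h the squares of Per1 (1.75) and Arntl (-0.81) lie beyond their circles (0.59 and -0.10).

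**Figure D4:**
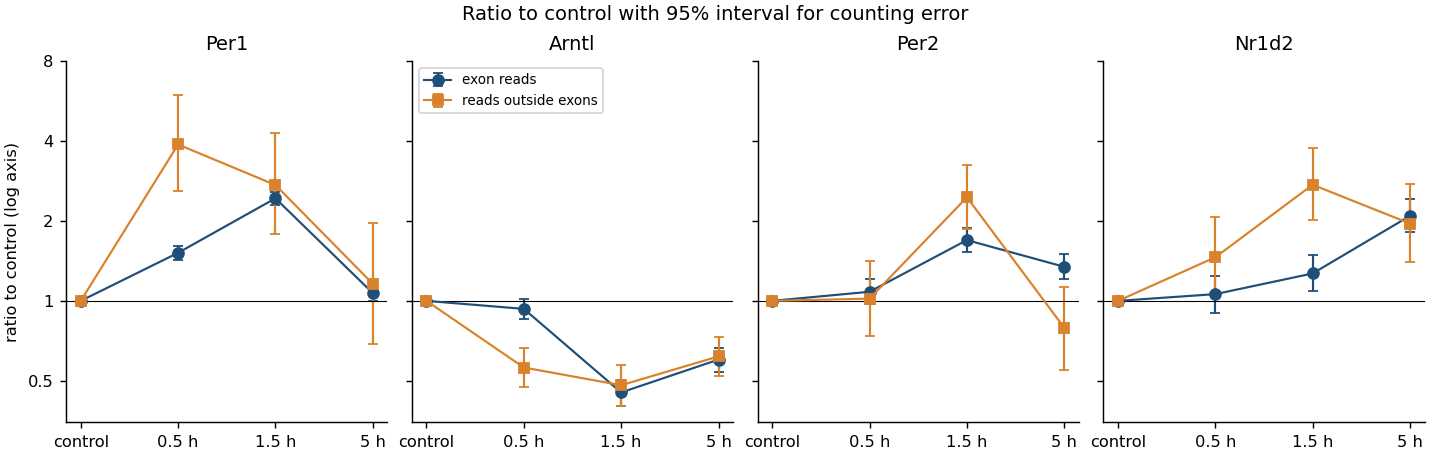
Ratio to control (vertical log axis) of exon reads and reads outside exons for Per1, Arntl, Per2 and Nr1d2 by condition, with lines for the 95% counting interval. The value outside exons is farthest from 1 at 0.5 h for Per1 and at 1.5 h for Nr1d2, and the exon value at 1.5 h and 5 h.

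Levels per exon length ordered the members in control as Bhlhe40 (46.6 CPM per kb), Cry1 (22.0), Arntl (10.3), Per1 (8.87), Clock (7.30), Cry2 (4.27), Dbp (3.57), Per2 (3.16), Nr1d1 (2.92) and Nr1d2 (1.75). The counting intervals of Dbp and Per2 overlapped, as did those of Per2 and Nr1d1, so these neighbours are not separated. Bhlhe40 stood at the 88.0th percentile of the 10871 features with at least 1 CPM in control, Cry1 at the 72.5th, Arntl at the 48.7th, and Nr1d2, the lowest, at the 12.7th. At 1.5 h Arntl had moved from place 3 to place 8, Per1 from 4 to 3 and Nr1d1 from 9 to 4, level with Clock within counting error. The interval of Arntl at place 8 overlapped that of Per2 at place 7, which overlapped that of Cry2 at place 6. At 5 h Nr1d1 and Nr1d2 could not be separated (3.657 and 3.655 CPM per kb), and neither could Nr1d2 and Dbp.

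Genes with a course like that of the called members were sought by the Euclidean distance between the 3 log2 ratios to control, over 8994 genes, 4 libraries and 1 shared control. For Arntl the 5 nearest were Ptger4 (distance 0.09), Card6, Dkk3, Socs3 and S1pr4, with log2 ratios at 1.5 h from -1.07 to -0.96 beside -1.09 for Arntl. For Per1 they were Tgif2 (0.14), Nr4a3, Slco4a1, Erf and D8Ertd82e. For Nr1d1 they were Dusp3 (0.34), Bcar3, Pprc1, Ifrd1 and Slco4a1, whose ratios at 1.5 h, 1.25 to 1.38, were all below the 1.66 of Nr1d1. Among the members themselves, Clock and Cry1 were closest (0.27) and Arntl and Nr1d1 farthest apart (2.95).

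The wider clock apparatus was followed through lists chosen with earlier results of these data known. Of 14 other loop genes, 6 were measured (at least 1 CPM in a compared library) and none was called in any comparison. Over all features tested, 0.305% to 0.852% were called per comparison, so a short list without a call is not read as unchanged. The 6 included Tef, a PAR bZIP factor like Dbp (51.0, 46.7, 49.5 and 47.4 CPM), and Ciart, a repressor of the activator pair listed as Gm129 (3.10, 3.01, 2.24 and 1.72 CPM, log2 ratio -0.59 at 5 h). Ciart and Per3 (at most 1.46 CPM) stayed under the 5 CPM that a call needs. Timeless, better known for DNA replication, had a log2 ratio of -0.31 at 5 h. Rora, an activator through the RORE, had at most 0.207 CPM, and Rorb at most 0.145 CPM. Npas2, the paralogue of Clock, did not exceed 0.0306 CPM, and Bhlhe41, the paralogue of Bhlhe40, had at most 0.1301 CPM.

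Of 16 kinases, ubiquitin ligases and related enzymes that set PER and CRY stability, 14 were measured and none was called, beside the same 0.305% to 0.852% of features. Their largest ratios to control were those of Prkaa2 (log2 0.32 at 0.5 h), a subunit of AMP kinase, and Fbxw11 (0.28 at 1.5 h), a ligase that targets PER proteins. Of 16 cofactors all were measured and none was called, beside the same shares. Tbl1x, a subunit of the NCoR corepressor complex through which REV-ERB acts, had the largest ratio to control (222, 217, 241 and 330 CPM, log2 0.57 at 5 h), followed by Sfpq, a PER-associated RNA-binding protein, at 0.36 at 1.5 h. Ncor1 itself had 469 to 518 CPM.

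Of 16 genes known as clock outputs in other tissues, 14 were measured. At 5 h Klf10, a Krüppel-like repressor, was 2.18-fold lower than control (16.2, 15.9, 17.4 and 7.42 CPM), and this was the only call against control, beside the 0.735% above. From 1.5 to 5 h, Klf10 and Coq10b, a mitochondrial coenzyme Q protein, were lower, beside 0.54% of all features tested. Coq10b had 3.33, 6.82, 7.48 and 3.15 CPM and log2 ratios to control of 0.85 and 0.97 at 0.5 and 1.5 h, just under the call. A further list held genes known for a RORE or for repression by REV-ERB. Of its 4 measured genes (Arntl, Clock, Cry1 and E2f8), Arntl was called at 1.5 h, beside 0.852% of features, and no other gene in any comparison. Arntl is itself a member chosen with its values known. Among the windows of Arntl, Clock and Cry1, only the Arntl window shown above held a RORE. The 14 housekeeping genes gave no call, with median log2 ratios of -0.05, -0.09 and -0.11 to control.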

How the data were processed

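Poly(A) RNA of 4 libraries was sequenced on a HiSeq system in 4 lanes each. TruSeq or NEBNext kits were used per the labels' protocols, without saying for which library. The submitters' processing notes name CASAVA 1.8.2 and mm10; an aligner, a counter and strand use were not given in the sources used here. Deposited values are the authors' whole-number counts per feature and lane in 3 tables (total and unique reads in exons, in the gene span and across borders), per the file headers. What counted as unique is not stated.

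The members and gene lists were chosen with earlier results of these data known. Lanes were summed per condition, and totals divided by the sum of exon reads over all features to give CPM. Reads outside exons are unique gene minus unique exon reads. Named were all 10 members, called genes of the clock lists or otherwise the 2 with the largest ratios, the 5 nearest genes by course, genes overlapping a member, and Blnk and Esr1; the other genes with values were added after their values were seen. With 1 library per condition no count model was tested. Scaling factors came from edgeR 4.0.16 (TMM) and DESeq2 1.42.0; ratios and exact intervals used Python 3.11.15 and scipy 1.17.1, and the calling code was tested on simulated data. A count of 0 allows up to 3 reads at 95%. Alternatives were other scalings, pseudocounts, floors, fold rules, read classes and leaving out lanes.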

Additional observations from a re-analysis of the deposited data

How the results depend on the processing

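Directions of the called members held under every alternative run: Nr1d1 at 1.5 h kept a log2 ratio between 1.35 and 1.76, Per1 1.18 to 1.30, and Arntl -1.14 to -0.92, which lost its call only with a pseudocount of 5 CPM. The number of members called moved where a gene lay next to the limit. It was 3 at 1.5 h, but 2 with a pseudocount of 5 CPM (Arntl lost) and 4 under a 1.5-fold rule (Per2 added); 0 at 0.5 h and 1 under a 1.5-fold rule; 0 at 5 h, but 1 with a pseudocount of 0.1 CPM and 2 under a 1.5-fold rule; 1 from 0.5 to 1.5 h, but 2 with a pseudocount of 0.1 CPM, unique exon reads or exon-exon junction reads (the last chosen after seeing the data) and 4 under a 1.5-fold rule; and 2 from 1.5 to 5 h, but 4 under a 1.5-fold rule. Leaving out 1 lane gave 0 to 1 at 5 h (Nr1d2 without lane 4) and 1 to 2 from 0.5 to 1.5 h (Arntl without lane 2 or 3). Outside exons, a pseudocount of 1 gave 2 instead of 4 at 1.5 h, 0 instead of 1 from 0.5 to 1.5 h and 1 instead of 2 from 1.5 to 5 h. Total reads outside exons (chosen after seeing the data) gave 1 at 5 h, Nr1d2, and, as did no floor, 3 from 1.5 to 5 h (Nr1d1 added). Leaving out 1 lane gave 3 to 4 at 1.5 h (Arntl lost without lane 3), 0 to 1 at 5 h (Nr1d2 without lane 2) and 1 to 2 from 1.5 to 5 h (Per1 lost without lane 1 or 4). All 65 alternative values of the members' medians lay within the interval of the main value. That interval is not one for counting error but spans most of the members' own ratios. At 1.5 h it ran from the log2 ratio of Dbp (0.004) to that of Per1 (1.27). It is too wide for this to show that the medians are stable. Klf10 lost its call at 5 h with a pseudocount of 5 CPM, a floor of 20 CPM, junction reads or without lane 1. No paired analysis was possible because the numbers mark lanes of 1 library per condition. Depth leaves Nr1d1 and Dbp under the floor outside exons, so neither could be called there by the main rule.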

Other observations

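Lists of CREB and glucocorticoid receptor targets were also followed, because both factors can act on Per1 and other clock genes. The CREB list also holds Creb1, Atf1 and the coactivator genes Crtc1, Crtc2 and Crtc3, and the receptor list holds Nr3c1 itself. These are not targets but are part of the counts and medians. Both lists were chosen with earlier results of these data known, so their counts are not read as a result about either factor. Measured means at least 1 CPM, whereas a call needs 5 CPM. Sik1 (at most 2.36 CPM), Sgk1 (at most 2.63) and Cdkn1a (at most 3.46) could therefore not be called. Of 16 measured genes on the CREB list, 5 were called higher at 0.5 h, beside 0.305% of all 9516 features tested in either direction. They were Nr4a1 (3.996, 29.6, 14.7 and 1.56 CPM from control to 5 h), Fos (0.898, 6.79, 1.04 and 1.203), Fosb (1.01, 10.96, 2.48 and 1.11), Junb (35.5, 94.4, 75.6 and 37.5) and Ppp1r15a (20.6, 50.3, 26.7 and 21.6). In control, Nr4a1, Fos and Fosb were under 5 CPM, so in this comparison they passed the floor only through the 0.5 h library. At 1.5 h, Nr4a1, Nr4a3 and Junb were called higher (3 of 16, beside 0.852% of 9512), and at 5 h none of 15 (0.735% of 9520). Not all of the list moved up: at 1.5 h, 12 genes were above 0 and 4 below. Pde4b had 59.0, 58.5, 30.5 and 54.2 CPM, a log2 ratio of -0.93 at 1.5 h, just short of a call. The median log2 ratio to control over the measured genes of the CREB list was 0.39, 0.24 and 0.08. Nr4a1, Fos, Fosb and Junb had their highest exon level at 0.5 h, while Per1, Crem (19.5, 25.2, 34.1 and 23.9 CPM) and Nr4a3 (2.72, 4.55, 7.57 and 3.42 CPM) had theirs at 1.5 h.

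Of 8 measured genes on the glucocorticoid receptor list, Dusp1 alone was called against control, at 0.5 h (2.72, 7.41, 2.61 and 2.05 CPM), beside the same 0.305% of features. Klf9 had 14.2, 21.5, 28.4 and 19.5 CPM, a log2 ratio of 0.95 at 1.5 h, just under the call. Tsc22d3 and Fkbp5, both induced by the receptor in lymphocytes, had log2 ratios of -0.38 and -0.03 at 1.5 h. The receptor gene Nr3c1 had 112 to 121 CPM in the 4 libraries.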
